A study of Oryza sativa with 18 samples.

Results

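Of the 4 groups of rice callus whose complete expression tables were analysed here, the 2 that lay closest together were pCPL, a transgenic line, and Teqing3, a culture of the untransformed cultivar deposited as the control of another line. The comparison of these 2 groups is described here, gene by gene. A gene entered it when it was annotated in both tables and its mean exceeded 1 FPKM in pCPL or in Teqing3. FPKM is a fragment count scaled by gene length and library size. This rule kept 20362 of 36844 annotated genes.

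All groups were callus of indica rice, from mature seeds on medium with 2,4-D, after 21 days of subculture, and each had 3 biological replicates. Teqing is a cultivar whose callus browns readily in culture. pCPL was Teqing carrying a genomic copy of BOC1 with its own promoter from YIL25, an introgression line with less browning, and pOE was Teqing carrying the YIL25 coding sequence of BOC1 behind the ubiquitin promoter, which is active in most cells. Teqing3 was deposited as the control of pOE, and Teqing2 as that of pCPL. The labels give both the cultivar Teqing and no other difference. The sources do not say which transformed line gave the pCPL libraries, so the pCPL values may be those of 1 line. YIL25 and its own Teqing culture were not used here. BOC1 encodes a nuclear protein of the SRO family, whose members are known in Arabidopsis for their part in oxidative stress and cell death.

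Callus from the scutellum of mature seeds is a mass of dividing, unspecialized cells kept on auxin and sugar in the dark. Cultured rice cells are known for switching on α-amylase genes when sugar runs short, and embryo-derived callus can keep part of the seed maturation programme, in which abscisic acid and the factor VP1 switch on LEA proteins, dehydrins and the oleosins that coat oil bodies. Cells that grow and enlarge also need water channels and the enzymes that bring nitrogen into amino acids.

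The pCPL libraries held between 16438911 and 17259672 reads over annotated genes, and the Teqing3 libraries between 20702196 and 26010426. The median coefficient of variation between replicates was 6.46% in pCPL and 6.80% in Teqing3. The groups stand in tables that were normalized separately, and median-of-ratios factors were 0.992 to 0.996 for the pCPL libraries and 1.011 to 1.018 for those of Teqing3. Table and group cannot be told apart in this comparison. For this reason no p-value is given between pCPL and Teqing3, and a gene was called where the mean of log2(FPKM + 1) differed by at least 1, a 2-fold change on that scale, and the 3 libraries of one group did not overlap the 3 of the other. The levels are those of whole callus, in which fewer cells of a type and less RNA per cell cannot be told apart.

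Between pCPL and Teqing3, 377 genes were higher in pCPL (1.85% of those tested) and 512 were lower (2.51%). The median difference over all genes was -0.02, and the median size of the difference was 0.22 on the log2 scale. Without the fold threshold, all pCPL libraries lay above all Teqing3 libraries for 26.8% of genes and below them for 32.4%. Small differences between these groups were thus common and 2-fold ones were not. Among called genes, 51 of the higher and 6 of the lower passed 4-fold on the log2(FPKM + 1) scale. By the ratio of mean FPKM more genes passed it. LOC_Os03g39850, for one, was 9.46-fold lower in pCPL at a difference of -1.98. The genes nearest the threshold stood at 1.0005 just inside and 0.9993 just outside it on the higher side, and at -1.0032 just inside and -0.9996 just outside it on the lower side. Only 5 genes differed 2-fold while their libraries overlapped.

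**Figure D1:**
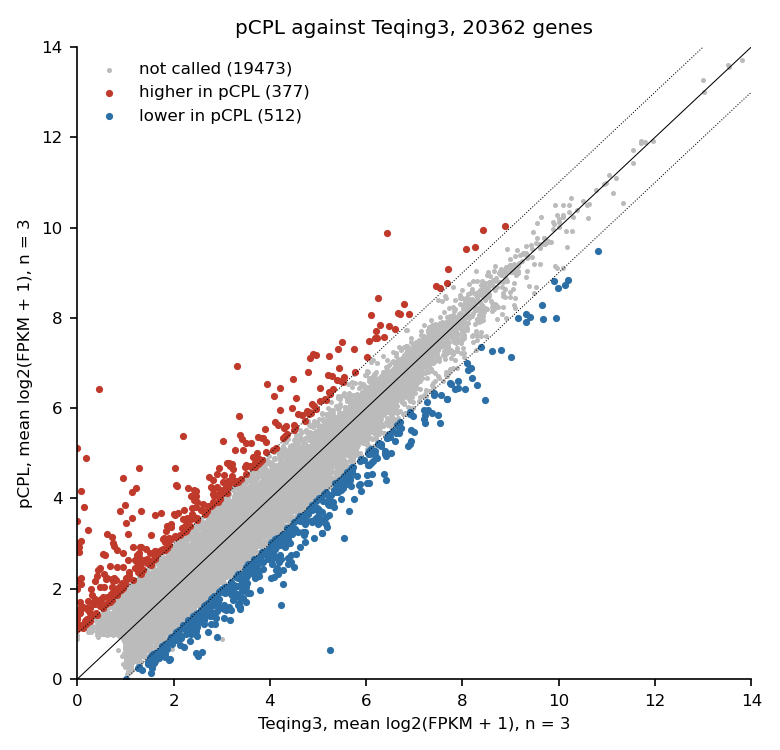
Mean log2(FPKM + 1) of the 3 pCPL libraries (vertical axis) against that of the 3 Teqing3 libraries (horizontal axis) for 20362 genes. Red points are the 377 genes called higher in pCPL and blue points the 512 called lower, the solid line marks equal levels, the dotted lines mark a difference of 1, and the highest red points lie farther from the line than the blue ones.

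The same rule called more genes between every other pair of the 4 groups. The pair was picked out for this closeness, so the ranking is a description. It called 4.37% of genes between pCPL and Teqing3, against 13.8% between pCPL and Teqing2, 15.8% between pOE and Teqing3, 13.6% between pOE and Teqing2, and 15.01% between pOE and pCPL. The largest share, 16.3%, lay between Teqing3 and Teqing2, the 2 cultures with the same name. The median size of the difference was 0.44 between these 2 cultures and 0.39 between pCPL and Teqing2.

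**Figure D2:**
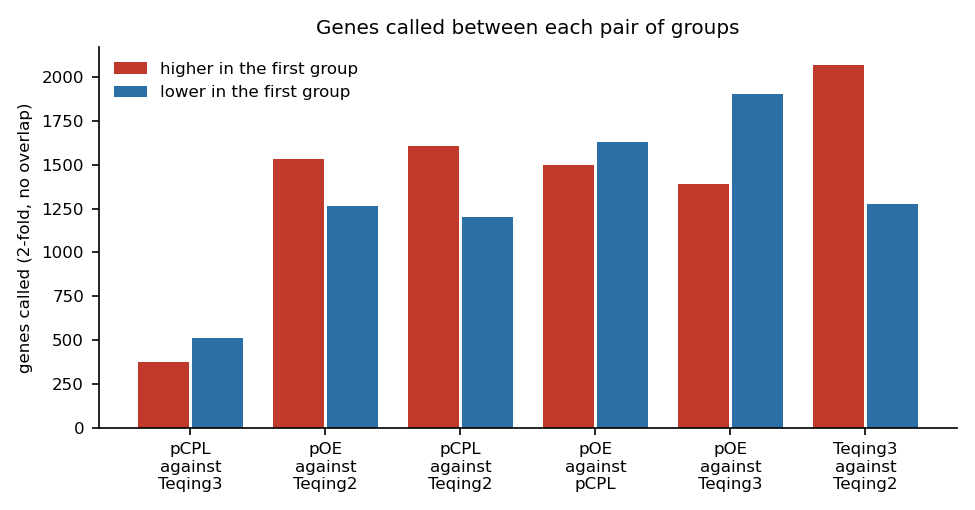
Number of genes called in each pair of groups, higher (red) or lower (blue) in the group named first, with 3 libraries per group. The bars for pCPL against Teqing3 stand at 377 and 512, and those for Teqing3 against Teqing2 at 2070 and 1277.

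The way in which the 4 groups fell into pairs was also counted, a count chosen after the values had been seen. In 691 genes (3.23% of 21404 with a mean above 1 FPKM in any group), pCPL and Teqing3 lay together on one side of pOE and Teqing2, with no overlap and with every difference at least 2-fold. Of these genes, 503 were higher in pCPL and Teqing3 and 188 were lower. The 2 transgenic lines lay together on one side of both Teqing cultures in 85 genes (0.397%), 21 of them higher and 64 lower in the lines. The remaining split, pCPL and Teqing2 against pOE and Teqing3, held 96 genes (0.449%). pCPL and Teqing3 were picked as the closest pair, so the larger count of the first split is a description and no independent evidence.

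BOC1 (LOC_Os03g12820) is the gene that both constructs carried. It lies on chromosome 3 at 6895178 to 6898348, in coordinates of the files, which the notes place on IRGSP-1.0. It had 102, 99.96 and 103 FPKM in pCPL libraries, against 64.7, 68.4 and 63.3 FPKM in Teqing3 libraries. All pCPL libraries were above those of Teqing3, which held for 26.8% of all genes. The ratio of the means was 1.55 (difference 0.63 ± 0.03 on the log2 scale, SE), and BOC1 was not called. It averaged 579 ± 4.42 FPKM in pOE and 57.6 ± 0.324 FPKM in Teqing2 (SD, n = 3 each). Tests were run only within a table, where a gene was called at a 2-fold change and a Benjamini-Hochberg adjusted p below 0.001 in limma. Between pCPL and Teqing2 this called 13.4% of genes, 7.69% higher and 5.75% lower in pCPL. Between pOE and Teqing3 it called 15.5%, 6.47% higher and 8.99% lower in pOE. BOC1 was higher in pCPL than in Teqing2 by 0.81 on the log2 scale, short of 2-fold (limma adjusted p = 2.13e-08), and rose in pOE over Teqing3 by 3.13 (limma adjusted p = 1.99e-11). Reads of the inserted copy and of the resident gene cannot be told apart.

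Seed maturation genes stood among the lists with higher levels in pCPL. Of the 8 genes in a list of LEA proteins and dehydrins, all were tested, 4 were called higher and none lower, against 1.85% and 2.51% of all genes, and the list's median difference was 1.003. LEA proteins and dehydrins are small hydrophilic proteins that protect cells during drying, and abscisic acid induces them.

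The largest of these differences was that of LOC_Os05g28210, annotated in the study as a small hydrophilic plant seed protein. It had 352, 339 and 352 FPKM in pCPL libraries, against 72.2, 74.4 and 78.5 FPKM in Teqing3 libraries. The groups did not overlap in any library. The ratio of the means was 4.63 and the difference 2.20 ± 0.04 (SE). The dehydrin RAB21 (LOC_Os11g26790) had 285, 257 and 267 FPKM in pCPL, against 97.8, 110.3 and 100.1 FPKM in Teqing3, a difference of 1.38 ± 0.07. Its neighbour RAB16B (LOC_Os11g26780) averaged 36.3 ± 1.97 FPKM in pCPL and 11.2 ± 0.156 FPKM in Teqing3 (SD, n = 3 each). Both dehydrin genes were higher in pCPL than in Teqing3, by 2.63-fold and 3.24-fold. LOC_Os01g50910, annotated as a group 3 LEA protein, had 747, 748 and 776 FPKM in pCPL, against 293, 318 and 302 FPKM in Teqing3.

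Of the 4 called genes, LOC_Os05g28210, LOC_Os01g50910 and RAB16B also belong to a set that the study chose. Its genes had to be higher in pCPL than in Teqing2 and lower in pOE than in Teqing3. The direction of these genes is thus not independent of that choice.

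The other members of the list were not called. RAB16C averaged 1.36 ± 0.365 FPKM in pCPL and 0.461 ± 0.243 FPKM in Teqing3 (SD, n = 3 each), and RAB16D overlapped between the groups. LEA3 (LOC_Os05g46480) had 454, 441 and 464 FPKM in pCPL, against 477, 523 and 464 FPKM in Teqing3, and LOC_Os02g44870 overlapped. The 2 most abundant genes not called, LEA3 and LOC_Os02g44870, thus differed little between the groups. A further gene outside the list, LOC_Os04g49980, is annotated in the study as a group 1 LEA protein. It had 738, 707 and 767 FPKM in pCPL, against 262, 291 and 250.4 FPKM in Teqing3, and it was picked out after its values had been seen.

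Within their own tables, LOC_Os05g28210, RAB21 and LOC_Os01g50910 were among the genes that also differed from the control in the same table. LOC_Os05g28210 was higher in pCPL than in Teqing2 by 2.36 on the log2 scale (limma adjusted p = 2.82e-11) and fell in pOE against Teqing3 (limma difference -3.70, adjusted p = 3.18e-09). RAB21 was higher in pCPL than in Teqing2 by 2.51 (limma adjusted p = 3.5e-10), and its difference between pOE and Teqing3 was -5.97 (limma adjusted p = 6.71e-10). LOC_Os01g50910 was higher in pCPL than in Teqing2 by 1.33 (limma adjusted p = 2.8e-10). Its difference between pOE and Teqing3 was -3.35 (limma adjusted p = 1.48e-10). The pCPL libraries enter the first of these fits and the Teqing3 libraries the second, so neither fit is independent of the comparison described here.

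The 2 oleosin genes, whose products coat the oil bodies of seeds, were 4.77-fold and 5.14-fold higher in pCPL. OLE18 (LOC_Os03g49190) had 148, 145 and 141 FPKM in pCPL, against 30.1, 35.5 and 25.4 FPKM in Teqing3. LOC_Os04g46200 had 145, 149.9 and 146 FPKM in pCPL, against 28.3, 29.8 and 27.7 FPKM in Teqing3, a difference of 2.32 ± 0.03 (SE). The groups did not overlap in either gene, and both genes also stood above their level in pOE (40.2 and 40.8 FPKM) and Teqing2 (64.2 and 82.2 FPKM). VP1 (LOC_Os01g68370), the transcription factor of seed maturation, had 74.2, 73.9 and 69.8 FPKM in pCPL, against 35.1, 34.1 and 34.7 FPKM in Teqing3. It was the only call among the 8 developmental factors tested, of 12 listed, where 1.85% of all genes were called higher. It averaged 32.2 FPKM in pOE and 30.2 FPKM in Teqing2, so that pCPL stood apart from the 3 other groups, which lay close together.

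These 2 oleosins belong to a list of 6 markers of seed tissue. The summed level of the list was 292 to 300.4 FPKM in pCPL libraries and 57.9 to 69.0 FPKM in Teqing3 libraries. Of its 6 markers, 4 were tested, 2 were called higher and none lower, against 1.85% and 2.51% of all genes, and the median difference was 1.22. The other 4 markers, storage protein genes, were low in both groups, and the 2 of them that were tested overlapped. LOC_Os02g15178 was listed at 0 in every library, LOC_Os05g41970 had at most 0.307 FPKM in pCPL and 0.508 FPKM in Teqing3, and LOC_Os01g55690 had 1.49, 1.26 and 1.42 FPKM in pCPL, against 1.28, 0.960 and 1.28 FPKM in Teqing3. The fourth, LOC_Os10g26060, averaged 3.39 FPKM in pCPL and 2.75 FPKM in Teqing3. The part of seed tissue in the LEA values was not tested.

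The opposite group, lower in pCPL, was led by aquaporins. Of its 15 listed genes, 10 passed the level filter. None of the 10 was called higher in pCPL and 5 were called lower (against 2.51% of all genes). Of the 10, 9 lay below Teqing3 in every pCPL library, against 32.4% of all genes, and the median difference was -1.11. Aquaporins of the PIP kind carry water across the plasma membrane and those of the TIP kind across the vacuole membrane. PIP1-3 (LOC_Os02g57720) had 90.8, 90.1 and 92.3 FPKM in pCPL, against 309.99, 329 and 305 FPKM in Teqing3. The level in pCPL was 3.46-fold lower.

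The vacuolar channel TIP1-1 (LOC_Os03g05290) had 20.9, 18.4 and 19.1 FPKM in pCPL, against 66.3, 65.2 and 65.9 FPKM in Teqing3. TIP2-2 (LOC_Os06g22960) had 249, 258 and 264 FPKM in pCPL, against 658, 692 and 666 FPKM in Teqing3. PIP2-4 and PIP1-2 were also called lower, with differences of -1.67 ± 0.18 and -1.23 ± 0.11 (SE). These 5 genes thus included both kinds of channel. PIP1-1 was not called, with 257, 262 and 263 FPKM in pCPL and 305, 293 and 279.7 FPKM in Teqing3, and PIP2-6 overlapped. In TIP1-1 it was Teqing3 that stood apart, since pOE averaged 7.96 FPKM and Teqing2 4.16 FPKM. In PIP1-3 the level of pCPL was near that of Teqing2 (84.6 FPKM), and pOE (240.2 FPKM) was nearer to Teqing3.

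The α-amylase genes, whose enzymes break down starch, were also lower in pCPL, but unevenly. The list of α-amylases and sugar starvation regulators held 12 entries, of which 10 passed the level filter. Of these, 4 were called lower (2.51% of all genes) and none higher, 8 lay below Teqing3 in every library (32.4% of all genes), and the median difference was -0.88. AMY1A (LOC_Os02g52710) had 417, 428 and 422 FPKM in pCPL, against 1129, 1149.8 and 1067 FPKM in Teqing3. Its neighbour LOC_Os02g52700, annotated in the study as an α-amylase too, averaged 77.9 ± 1.48 FPKM in pCPL and 188 ± 4.71 FPKM in Teqing3 (SD, n = 3 each). AMY3A (LOC_Os09g28400) had 18.5, 20.2 and 18.5 FPKM in pCPL, against 58.7, 57.5 and 56.7 FPKM in Teqing3. Both AMY1A and its neighbour are in the study's set chosen for being higher in pCPL than in Teqing2 and lower in pOE than in Teqing3. Their high level in Teqing3 is thus not independent of that choice. The α-amylase genes are similar copies, and reads shared between them may have been divided.

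AMY3D, the α-amylase gene best known for its response to sugar starvation, and its neighbour AMY3E behaved differently from each other. AMY3E (LOC_Os08g36900) had 1997, 2027 and 2006 FPKM in pCPL, against 1989, 2023 and 1898 FPKM in Teqing3, and the groups overlapped. AMY3D (LOC_Os08g36910) had 563, 552 and 582 FPKM in pCPL, against 954, 987 and 955 FPKM in Teqing3, a difference of -0.77 ± 0.03 (SE) that was not called. In pOE the same genes averaged 67.5 FPKM (AMY3E) and 47.55 FPKM (AMY3D). CIPK15 (LOC_Os11g02240), a kinase that relays sugar and oxygen shortage to SnRK1A, had 12.9, 13.1 and 13.3 FPKM in pCPL, against 40.2, 37.7 and 39.3 FPKM in Teqing3. SnRK1A itself overlapped between the groups, and MYBS1, the factor that binds α-amylase promoters, differed by -0.93 ± 0.09 (SE) and was not called.

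**Figure D3:**
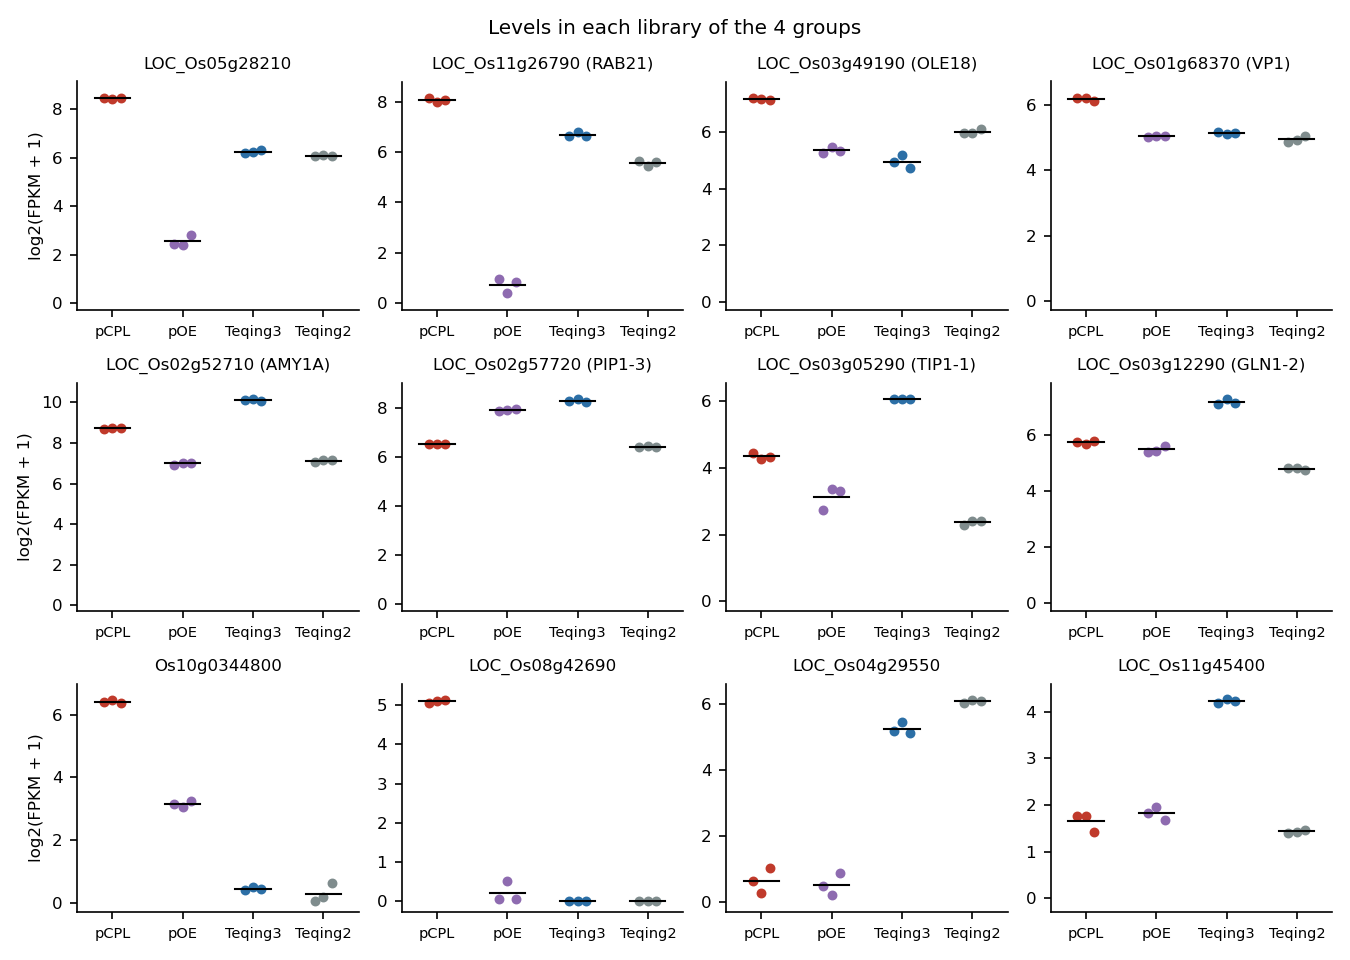
Level of 12 genes in each library, as log2(FPKM + 1) on the vertical axis, in pCPL, pOE, Teqing3 and Teqing2 (points, 3 libraries per group; bar, mean). In the upper row pCPL lies above Teqing3, in the middle row below it, and in the lower row LOC_Os08g42690 is listed at 0 in Teqing3 and Teqing2 while LOC_Os04g29550 is low in both lines and LOC_Os11g45400 is high in Teqing3 alone.

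Nitrogen uptake and assimilation genes included 3 called lower in pCPL and none called higher among the 10 of 15 listed genes that were tested, against 2.51% and 1.85% of all genes, with a list median of -0.25. GLN1-2 (LOC_Os03g12290), a cytosolic glutamine synthetase, had 53.3, 51.0 and 54.3 FPKM in pCPL, against 139, 157 and 141 FPKM in Teqing3. NAR2.1 (LOC_Os02g38230), the partner protein of high-affinity nitrate transporters, had 9.20, 9.61 and 10.7 FPKM in pCPL, against 29.8, 32.8 and 31.1 FPKM in Teqing3. LOC_Os03g18130 had the largest difference of the list, with 137, 142 and 142 FPKM in pCPL and 522, 524 and 503 FPKM in Teqing3. The remaining 7 tested members lay between -0.51 and 0.65, GLN1-1 among them at -0.11 ± 0.04 (SE). NAR2.1 was highest in Teqing3, with 1.92 FPKM in pOE and 4.44 FPKM in Teqing2.

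Pathogenesis-related genes of the PR1 and PR10 families, which rice cells make on infection and wounding, were below Teqing3 in every pCPL library for each of the 6 members tested, of 8 listed. Of these, 3 were called lower, against 2.51% of all genes, and the median was -1.06 (32.4% of all genes lay below in every library). LOC_Os12g36880 had 264, 262 and 285 FPKM in pCPL, against 627, 659 and 619 FPKM in Teqing3, and LOC_Os07g03710 had 1.31, 0.775 and 0.684 FPKM in pCPL, against 6.61, 6.54 and 6.42 FPKM in Teqing3. LOC_Os12g36850, which the study singled out and annotated as a Bet v I family protein, had 175, 182 and 172 FPKM in pCPL, against 296, 301 and 289 FPKM in Teqing3, a difference of -0.74 ± 0.03 (SE) that was not called. It averaged 1104 FPKM in pOE and 377 FPKM in Teqing2. The members on chromosome 12 are neighbours and similar copies, so reads shared between them may have been divided.

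The cell cycle list showed a smaller shift, with differences from -0.0057 to 0.89. None of its 8 genes was called, but 7 lay above Teqing3 in every pCPL library, against 26.8% of all genes, and the median difference was 0.68. CYCB1-1, a mitotic cyclin, had 12.7, 14.6 and 13.98 FPKM in pCPL, against 6.67, 7.32 and 6.95 FPKM in Teqing3. PCNA, the sliding clamp of DNA replication, had 74.6, 73.2 and 72.9 FPKM in pCPL, against 42.7, 40.6 and 41.2 FPKM in Teqing3. The mitotic kinases CDKB1-1 and CDKB2-1 differed by 0.76 ± 0.05 and 0.78 ± 0.05 (SE). PCNA averaged 84.4 FPKM in Teqing2 and 56.0 FPKM in pOE, and CDKB1-1 20.6 and 19.3 FPKM. In these genes Teqing3 was the lowest group, and in PCNA pCPL was not the highest. CYCB1-1 averaged 6.09 FPKM in Teqing2, below Teqing3, and 11.5 FPKM in pOE.

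Genes of reactive oxygen scavenging, which bear on browning, did not reach the 2-fold threshold. Of 20 listed superoxide dismutases, catalases, ascorbate peroxidases and glutathione reductases, 18 were tested and none was called, 4 lay above and 10 below Teqing3 in every pCPL library (26.8% and 32.4% of all genes), and the median was -0.25. The ascorbate peroxidase APX2 (LOC_Os07g49400) came nearest to the threshold, with 358, 375 and 392 FPKM in pCPL and 713, 741 and 699 FPKM in Teqing3. The cytosolic superoxide dismutase SODCC.2 had 84.5, 78.0 and 86.8 FPKM in pCPL, against 151, 150.1 and 153 FPKM in Teqing3. APX1, the most abundant gene of the list, differed by -0.37 ± 0.02 (SE). In the list of polyphenol oxidase and phenylalanine ammonia-lyases, the enzymes at the entry to phenolic compounds, none of 6 tested genes was called, and the median was -0.43.

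Hormone and stress regulators contributed single genes, where 1.85% of all genes were called higher and 2.51% lower. ACO1 (LOC_Os09g27820), an enzyme of the last step of ethylene synthesis, had 4.75, 4.57 and 4.69 FPKM in pCPL, against 0.647, 0.926 and 0.315 FPKM in Teqing3, a ratio of 7.42 at low levels. LOC_Os05g05680 of the same list was lower, at 3.14 ± 0.678 FPKM in pCPL and 7.47 ± 0.989 FPKM in Teqing3 (SD, n = 3 each). WRKY24 (LOC_Os01g61080), a transcription factor, had 20.5, 21.6 and 19.1 FPKM in pCPL, against 5.77, 7.24 and 5.34 FPKM in Teqing3, and it was the only call among the 11 WRKY genes listed. The jasmonate repressor JAZ10 (2.704-fold) and the cold and drought factor DREB1B (3.72-fold) were called higher at means of 5.57 and 2.898 FPKM in pCPL. LOC_Os01g53260, a WRKY gene that the study named, had 1.68, 1.99 and 0.931 FPKM in pCPL, against 2.75, 2.09 and 2.53 FPKM in Teqing3, and was not called.

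Further lists held few calls, where 1.85% of all genes were called higher and 2.51% lower. In the iron list, 9 of 12 genes were tested, and their median was -0.55. Of these, 7 lay below Teqing3 in every pCPL library and 1 above, against 32.4% and 26.8% of all genes. NAAT1, an enzyme of phytosiderophore synthesis, was called lower (0.926 FPKM in pCPL and 4.67 FPKM in Teqing3) and LOC_Os01g72370 higher (14.1 and 6.02 FPKM). The iron transporter IRT1 was not called. The cell wall loosening EXPB2 (4.26 FPKM in pCPL and 10.3 FPKM in Teqing3) and the metal-binding MT2A were called lower, at 452 ± 6.17 FPKM for MT2A in pCPL and 950.5 ± 30.9 FPKM in Teqing3 (SD, n = 3 each). No gene was called among fermentation enzymes (median 0.03), cellulose synthases (0.03), heat shock proteins (-0.20), cytokinin response regulators (0.07), auxin genes (0.11) or abscisic acid enzymes (0.41). At low levels the rule can pass over a larger ratio. LOC_Os03g44380 of the abscisic acid list averaged 1.70 FPKM in pCPL and 0.413 FPKM in Teqing3, and IRT1 0.639 and 2.01 FPKM, without overlap. Of the 6 genes commonly used as references in RT-qPCR, none was called, and their median was 0.13. The actin gene that the study named, LOC_Os03g50885, overlapped between pCPL and Teqing3 at 10.5 ± 1.36 FPKM and 8.67 ± 0.649 FPKM, against 26.97 FPKM in pOE and 39.7 FPKM in Teqing2 (SD, n = 3 each).

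**Figure D4:**
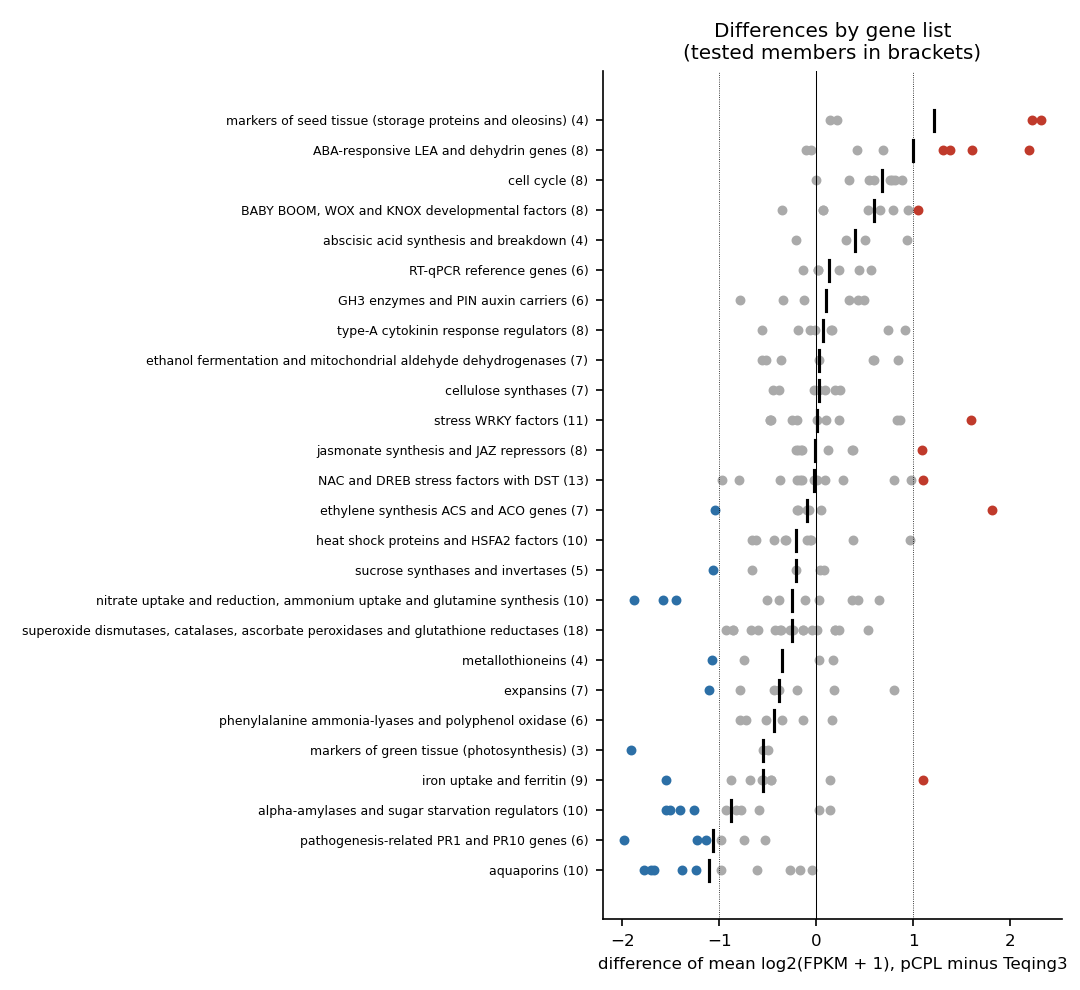
Difference of mean log2(FPKM + 1), pCPL minus Teqing3 (horizontal axis), for each tested member of 26 gene lists, with red points called higher, blue points called lower and a black bar at the list's median. Seed markers (median 1.22) and LEA genes (1.003) stand at the top, and α-amylases (-0.88), PR genes (-1.06) and aquaporins (-1.11) at the bottom.

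A marker list of green tissue moved in the same direction as the aquaporins. Only 3 of its 10 entries were tested. CAB1R (LOC_Os09g17740), which encodes a chlorophyll-binding protein, had 12.4, 11.9 and 12.6 FPKM in pCPL, against 51.0, 48.0 and 48.0 FPKM in Teqing3. The summed level of the list was 17.98 to 19.0 FPKM in pCPL and 56.9 to 60.01 FPKM in Teqing3, so CAB1R made up most of it. Of the 10 entries, 3 were listed at 0 in all pCPL libraries and 2 in all Teqing3 libraries. CAB1R was low in pOE as well (3.02 FPKM) and high in Teqing2 (54.9 FPKM). The part of green cells in the other values was not tested.

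The study's own sets cut across this comparison. Its UUD genes were those higher in YIL25 and pCPL and lower in pOE than in the Teqing culture each was set against, and its DDU genes the reverse. Both sets were chosen on these libraries, so their counts are no independent evidence of a direction. Of 473 tested UUD entries, 9 were called higher and 6 lower in pCPL than in Teqing3, against 1.85% and 2.51% of all genes, with a median of -0.12. Of 253 tested DDU entries, none was called higher and 10 lower, against the same shares of all genes, with a median of -0.02. None of the 31 tested entries of UUD pentatricopeptide repeat genes, which act on organelle RNA, was called, and their median was 0.01.

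The called UUD genes included both directions of the lists above, namely the LEA genes on one side and AMY1A on the other. The inositol-3-phosphate synthase gene LOC_Os03g09250 had 183, 192 and 198 FPKM in pCPL, against 79.6, 86.5 and 77.9 FPKM in Teqing3. The glyoxalase family gene LOC_Os07g46360 averaged 6.76 ± 0.974 FPKM in pCPL and 0.736 ± 0.409 FPKM in Teqing3 (SD, n = 3 each). Among DDU genes, the phytosulfokine precursor LOC_Os07g03200, a gene for a small growth peptide, had 12.03, 12.4 and 11.8 FPKM in pCPL, against 31.03, 36.9 and 30.8 FPKM in Teqing3. LOC_Os01g42860, annotated as an inhibitor I family protein, averaged 61.3 ± 1.33 FPKM in pCPL and 154 ± 5.73 FPKM in Teqing3 (SD, n = 3 each). The cysteine proteinase gene LOC_Os01g67980 that the study named had 439, 465 and 443 FPKM in pCPL, against 303, 305 and 283 FPKM in Teqing3, and was not called.

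To see which group of the pair was the unusual one, each called gene was set beside pOE and Teqing2. pCPL stood apart from all 3 other groups, with no overlap and at least 2-fold from each, in 197 genes (0.920% of 21404), 146 of them higher and 51 lower. Teqing3 stood apart in 139 genes (0.649%), higher in 100 and lower in 39. Thus 146 of the 377 genes called higher in pCPL were set apart in pCPL and 39 in Teqing3, and 192 were in neither class. Of the 512 called lower, 51 were set apart in pCPL and 100 in Teqing3, and 361 were in neither. By the same rule Teqing2 stood apart in 518 genes (2.42%) and pOE in 975 (4.56%). pCPL and Teqing3 were picked as the closest pair, so their lower counts are a description.

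Some of the largest differences in favour of pCPL were those of genes that were near 0 in Teqing3. The entries are given by their identifiers, since the files pair them with no names. Os10g0344800 (chromosome 10, 10278806 to 10283435) had 84.3, 87.9 and 81.4 FPKM in pCPL, against 0.328, 0.412 and 0.363 FPKM in Teqing3, and averaged 7.94 FPKM in pOE and 0.245 FPKM in Teqing2. LOC_Os08g42690 (chromosome 8, 26982655 to 26986691) had 32.7, 33.8 and 34.5 FPKM in pCPL and was listed at 0 in all libraries of Teqing3 and Teqing2, while pOE averaged 0.161 FPKM. LOC_Os04g33885 had 29.0, 29.3 and 27.6 FPKM in pCPL, against 0.131, 0.161 and 0.130 FPKM in Teqing3. Os01g0262401, listed at 0 in Teqing3 and in pOE, had 12.1, 11.2 and 8.16 FPKM in pCPL. In all of these, pCPL was apart from the 3 other groups. Among abundant genes, LOC_Os03g02470 had 979, 932 and 936 FPKM in pCPL, against 84.5, 89.9 and 83.8 FPKM in Teqing3, and 443 FPKM on average in pOE.

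The largest difference in favour of Teqing3 was that of LOC_Os04g29550, which was low in both lines. LOC_Os04g29550 (chromosome 4, 17560683 to 17561234) had 0.552, 0.219 and 1.05 FPKM in pCPL, against 35.2, 42.6 and 33.8 FPKM in Teqing3. It was low in pOE too (0.480 FPKM) and high in Teqing2 (66.7 FPKM), so that both lines lay apart from both cultures of Teqing. Within the tables it fell in pCPL against Teqing2 (limma difference -5.43, adjusted p = 2.85e-09) and in pOE against Teqing3 (limma difference -4.71, adjusted p = 1.2e-08). LOC_Os07g05840 showed the reverse pattern, with 17.0, 16.4 and 17.1 FPKM in pCPL and a mean of 8.67 FPKM in pOE, against 0.0489 FPKM on average in Teqing3 and 0.0400 FPKM in Teqing2.

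LOC_Os11g45400 (chromosome 11, 27486903 to 27490269) was instead high in Teqing3 alone. It had 2.40, 2.38 and 1.67 FPKM in pCPL, against 17.2, 18.2 and 17.8 FPKM in Teqing3, and averaged 2.54 FPKM in pOE and 1.70 FPKM in Teqing2. The difference between pCPL and Teqing2 did not pass the test (limma difference 0.21, adjusted p = 0.164), and the gene fell in pOE against Teqing3 (limma difference -2.41, adjusted p = 2.1e-08). In LOC_Os04g56430 it was pCPL that was low, with 248, 263 and 249 FPKM, against 955, 1071 and 911 FPKM in Teqing3, and means of 1049.8 FPKM in pOE and 1580.2 FPKM in Teqing2.

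Called genes were short. The median gene length was 1016 bases for genes called higher and 1230 bases for genes called lower, against 1540 bases for all tested genes. Of genes under 1 kb, 3.67% were called higher and 3.73% lower, and of genes between 3 and 4 kb, 0.359% and 1.26%. The median difference was 0.01 under 1 kb and -0.08 between 4 and 6 kb.

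**Figure D5:**
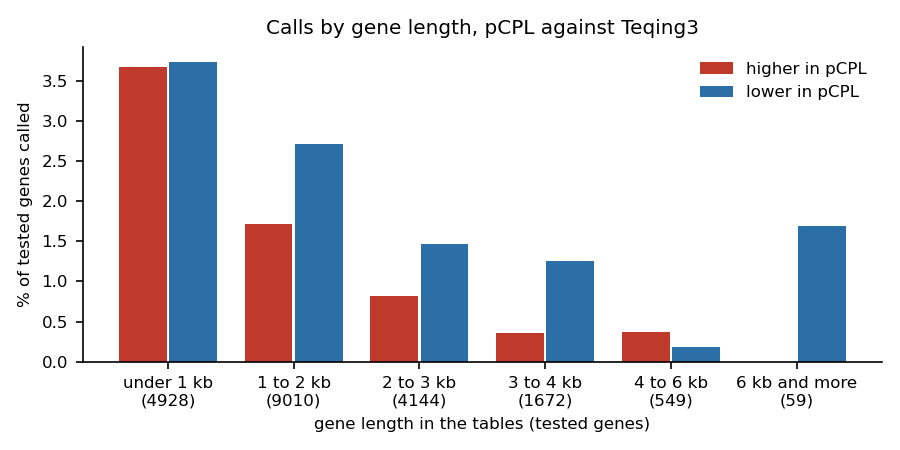
Percentage of tested genes called higher (red) and lower (blue) in pCPL than in Teqing3, by gene length, with the number of tested genes in brackets. The bars fall from 3.67% and 3.73% under 1 kb to 0.364% and 0.182% between 4 and 6 kb, and the last bin holds 59 genes with 1 call.

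The calls were spread over all 12 chromosomes. The share called higher ran from 1.297% on chromosome 6 to 2.45% on chromosome 9, and the share called lower from 1.91% on chromosome 6 to 4.09% on chromosome 10. Among 371 windows of 1 Mb with at least 10 tested genes, the lowest median was -0.36, between 5 and 6 Mb of chromosome 4, where 2 of 21 genes were called lower. These were LOC_Os04g09920, with means of 11.7 FPKM in pCPL and 26.7 FPKM in Teqing3, and LOC_Os04g10350, with means of 28.5 FPKM in pCPL and 58.2 FPKM in Teqing3. The highest median, 0.57, was that of the mitochondrial genome with 10 tested entries, of which 2 short RNA entries were called higher and averaged below 2 FPKM in pCPL.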

How the data were processed

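The data were RNA-seq libraries of rice callus, with 3 replicates in each of 4 groups. Per the labels and the study's methods, the authors aligned paired-end reads with TopHat2 to the IRGSP-1.0 genome and deposited FPKM values per gene. The submitters' notes also name bcl2fastq, CASAVA 1.8 and Cufflinks. Fold change and p-value columns hold the authors' own comparisons and were not used, nor was the YIL25 table. The pCPL and pOE tables were normalized separately and were joined by gene identifier after 1491 and 1584 unannotated transcripts had been left out. Values were taken as log2(FPKM + 1).

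The 3 libraries of pCPL were compared with the 3 of Teqing3 by the difference of means and by overlap, without a p-value. Within a table, limma 3.58.1 (R 4.3.3, empirical Bayes with a trend, Benjamini-Hochberg adjustment) was fitted to genes above 1 FPKM in either group. Tables were handled in Python 3.11.15 with pandas 2.3.3, and length trends were removed by lowess with statsmodels 0.14.6. Scripts were tested on simulated data. Read totals were recovered from FPKM steps and gene length, with 100% of low values whole within 0.02. Replicates are biological per the study. The p-values measure the spread between the libraries within a group, and not that between separate cultures such as Teqing2 and Teqing3.

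The genes compared and the gene lists were chosen with earlier results of these data known. List membership rests on general knowledge of rice loci, and 52 names were taken from RefSeq. Named were BOC1, genes the study names, the 12 largest differences in each direction with at least 5 FPKM in the higher group, up to 6 genes apart per direction, up to 4 per list by size of difference, and the called genes of extreme windows. Other genes, the study's called genes and genes set apart in both lines among them, were chosen after their values had been seen. Alternatives were median-of-ratios scaling, a pseudocount of 0.1, removal of the length trend, other filters and folds, leaving out each library, a replicate block within tables and scaling by reads over genes, the last chosen after seeing the data.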

Additional observations from a re-analysis of the deposited data

How the results depend on the processing

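The counts of 377 genes called higher and 512 called lower in pCPL than in Teqing3 depended most on the pseudocount and the fold. A pseudocount of 0.1 gave 725 and 964, a fold of 1.5 gave 1318 and 1816, and a fold of 4 gave 51 and 6. Median-of-ratios scaling gave 396 and 462, removal of the length trend 397 and 476, a filter at 5 FPKM 266 and 406, and scaling by reads over genes, chosen after seeing the data, 417 and 434. Leaving out single libraries gave 384 to 400 and 499 to 546. Of 165 differences of named genes between pCPL and Teqing3, none that was called changed sign in these alternatives, and the pseudocount moved 68 by more than the replicate spread. Median-of-ratios scaling and removal of the length trend moved 7 each, and scaling by reads over genes moved 44 of 164. Within the tables, leaving out single libraries gave 1498 to 1572 higher and 1130 to 1175 lower genes in pCPL against Teqing2, and 1278 to 1353 higher and 1818 to 1870 lower in pOE against Teqing3. The difference of LOC_Os04g59190 between pOE and Teqing3 was near 0 and became 0.0151 under median-of-ratios scaling (limma adjusted p = 0.879), with -0.0505 to 0.0938 when single libraries were left out, and that of LOC_Os06g35165 ran from -0.204 to 0.242. The cause was not tested.

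pCPL and Teqing3 were compared without a test, so no replicate block was fitted to that comparison. Within the tables, libraries with the same number did not deviate together (correlations of -0.04 to 0.01), and a replicate block gave 1562 higher and 1175 lower genes for pCPL against Teqing2, and 1344 and 1876 for pOE against Teqing3. Genes near 1 FPKM rest on few reads, and a fold on the log2(FPKM + 1) scale understates their change.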

Other observations

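Genes called lower in pCPL than in Teqing3 in part stood in rows along the chromosomes, a count made after the values had been seen and given without a test. There were 11 runs of at least 3 adjacent tested genes called lower and 1 of genes called higher. Most of the 512 genes called lower stood outside these runs. The longest held 5 genes on chromosome 8 (LOC_Os08g09000 to LOC_Os08g09060, 5238999 to 5261296), whose differences lay between -1.69 and -1.20. Runs of 4 stood on chromosome 1 (LOC_Os01g03310 to LOC_Os01g03340, -1.90 to -1.09) and on chromosome 11 (LOC_Os11g37940 to LOC_Os11g37970, -2.29 to -1.45). Shorter runs held the AMY1A pair with LOC_Os02g52720 and the PR10 genes from LOC_Os12g36860 to LOC_Os12g36880. The AMY1A pair and the PR10 genes are similar copies, so reads may be shared within these runs too. The run of higher genes (LOC_Os03g46100, LOC_Os03g46110 and Os03g0663750) includes overlapping annotations, so its entries may share reads.

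Of 142 tested entries of short noncoding RNA, 14 were called higher and 7 lower in pCPL than in Teqing3, against 1.85% and 2.51% of all genes. Among all tested genes under 1 kb the shares were 3.67% and 3.73%. Calls of such short entries can rest on few reads. ENSRNA050013671, of 89 bases, was called higher at 1.37, 0.678 and 1.96 FPKM in pCPL, against 0 in all Teqing3 libraries. LOC_Os01g65240 had 7.33, 6.45 and 7.42 FPKM in pCPL and a mean of 10.5 FPKM in pOE, against means of 0.700 FPKM in Teqing3 and 1.06 FPKM in Teqing2, and was thus higher in both lines.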
